A study of Bos taurus with 4 samples.

Results

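Mitochondrial ribosomal proteins were described here across 4 two-colour arrays of bovine embryos. They are the genes whose symbol on the array platform begins with MRPL or MRPS followed by a number, and they were chosen by name alone. The platform carried 128 probes for 75 such genes, of 15216 named genes on the array. Of the 75 genes, 46 have large subunit symbols (78 probes) and 29 have small subunit symbols (50 probes). A probe counted as measured where its spot was brighter than the negative control spots on 3 or 4 arrays, in the high BHB or the low BHB channel, and each gene was represented by its brightest measured probe. All 46 large subunit genes and 27 of 29 small subunit genes were measured, among 7879 measured genes in all. The remaining pair, MRPS9 and MRPS12, were above the control spots on at most 1 array in the high BHB channel and 2 in the low BHB channel, and have no ratio.

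The mitochondrial ribosome is encoded by both genomes: its ribosomal RNAs come from mitochondrial DNA, and all of its proteins are nuclear gene products that are imported. It translates the few proteins that mitochondrial DNA encodes, all of them core subunits of the respiratory chain and of ATP synthase. Some of its proteins descend from those of the bacterial ribosome, and others have no bacterial counterpart. In the early embryo mitochondria rely on the stock inherited from the oocyte, and the respiratory demand grows as the blastocyst cavity forms.

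The comparison concerns beta-hydroxybutyrate (BHB), a ketone body that builds up in the blood of cows in negative energy balance. Superovulated Holstein cows with systemic BHB over 0.9 mmol/l formed the high group and those under that level the low group, and all were inseminated with sexed semen taken from 6 bulls. Morulas and blastocysts collected 7 days after the start of oestrus were used together, and total RNA was amplified before labelling. The labels give neither the number of embryos or cows behind each RNA nor the balance of the 2 stages. Each array held 1 RNA of each group, with high BHB in Cy5 on arrays 1 and 2 and in Cy3 on arrays 3 and 4. The labels call the arrays biological replicates, so a p-value speaks only of the spread among these 4, and their number limits the precision. The labels number the high BHB RNAs 1 to 4, while the titles number arrays 3 and 4 as dye swaps 1 and 2. The arrays were treated here as 4 replicates, with averaging by title number as an alternative.

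Every ratio below is a log2 ratio of high over low BHB, and a value under 0 means a lower level in embryos of high BHB cows. Between 33.5% and 48.7% of all probes were above the control spots in each channel. The ratios of measured genes spread most on array 1 (SD 0.83) and least on array 2 (SD 0.44). Arrays resembled each other weakly across genes, with Pearson's r from 0.13 for arrays 1 and 3 to 0.38 for arrays 1 and 4. Of the embryo markers, 9 of 10 trophectoderm, 6 of 7 inner cell mass and 5 of 7 hypoblast genes were measured. Among 9 markers of other cells that a collection of embryos could hold, PTPRC of leukocytes and HBA of red cells were above the control spots in both channels of all 4 arrays, and the other 7 were not measured.

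Large subunit genes had mostly lower levels in embryos of high BHB cows. Their median log2 ratio was -0.34, or 0.791-fold, and 40 of 46 had a mean below 0. Small subunit genes leaned the same way by less, with a median of -0.19, or 0.879-fold, and 20 of 27 below 0. Over all 7879 measured genes the median was -0.04, with 54.4% below 0. As the RNA came from whole embryos in bulk, fewer cells of a type and less RNA per cell cannot be told apart.

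No member passed an adjusted p of 0.05 in limma, where 2 of 16575 probes did (0.0121%). At an unadjusted p under 0.05 in limma, 15 of 46 large subunit genes (32.6%) and 5 of 27 small subunit genes (18.5%) were lower, against 11.6% of all measured genes. MRPS2 alone was higher at that level, 1 of 73 members, against 5.72% of all genes. Without array 4 the 20 lower members became 8 of 73, against 7.16% of all genes. They became 12 without array 1, against 9.42% of all genes, and 12 without array 3, against 9.86%. These counts are a description, since genes on an array are not independent replicates.

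Both subunits had medians below 0 on each array. For the large subunit the array medians were -0.58, -0.19, -0.27 and -0.28 on arrays 1 to 4, with 37 of 46, 31 of 46, 37 of 45 and 32 of 45 genes below 0. For the small subunit they were -0.19, -0.14, -0.27 and -0.09, with 17, 19, 21 and 17 of 27 genes below 0. Over all measured genes 57.4%, 49.4%, 51.5% and 53.8% were below 0 on the same arrays, with medians of -0.14, 0.0057, -0.019 and -0.056. The large subunit median lay below that of all genes by differences of -0.44, -0.20, -0.25 and -0.22. For the small subunit the differences were -0.046, -0.15, -0.25 and -0.033, so that on arrays 1 and 4 it was close to all genes. Array 1 had the lowest large subunit median and array 3 the lowest small subunit median.

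Members often had ratios of 1 sign on every array. Ratios were below 0 on all 4 arrays for 21 of 44 large subunit genes that had 4 values (47.7%) and for 9 of 27 small subunit genes (33.3%), against 15.6% of all genes. Ratios were above 0 on all 4 arrays for MRPL27 and MRPS2 only among the members, against 10.4% of all genes. MRPL39 lacked a value on array 3 and MRPL43 on array 4, where the scanner software had set the spot aside, so their fits rest on 3 arrays.

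**Figure D1:**
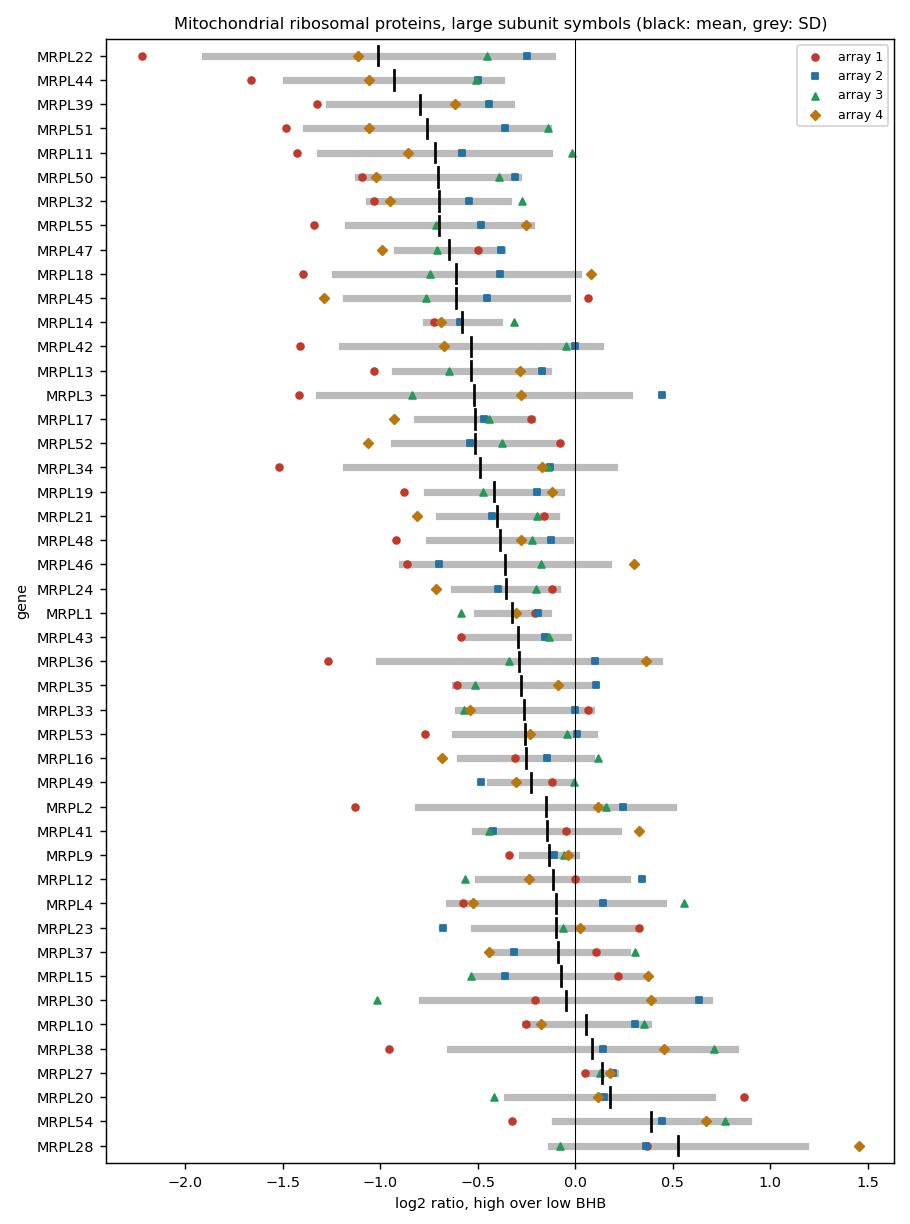
Log2 ratios of high over low BHB (horizontal axis) for the 46 measured large subunit genes (vertical axis), ordered by mean. Coloured points are arrays 1 to 4, black ticks the means and grey bars the mean ± SD over arrays; 40 means lie below 0, and array 1 gives many of the lowest points.

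Among large subunit genes MRPL22 had the lowest mean. It is the homologue of a bacterial protein that lines the exit tunnel of the ribosome. Normalised log2 intensities of its brightest probe on arrays 1 to 4 were 11.27, 11.91, 11.87 and 12.59 for high BHB and 13.49, 12.16, 12.32 and 13.71 for low BHB. Log2 ratios were thus -2.22, -0.24, -0.45 and -1.12, all below 0 with array 1 far the lowest. The mean was -1.01 ± 0.89 (SD, n = 4), or 0.497-fold, with an adjusted p of 0.258 in limma, and -0.60 without array 1. Its other measured probes had means of -0.51 and -0.24.

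MRPL44, a mitochondrion-specific protein with a fold related to RNase III, had log2 ratios of -1.66, -0.50, -0.51 and -1.06. Its normalised log2 intensities were 9.90, 11.15, 11.39 and 11.39 for high BHB and 11.56, 11.65, 11.90 and 12.45 for low BHB, lower for high BHB on every array. Its mean of -0.93 ± 0.55 (0.525-fold) had the smallest unadjusted p of any member, 0.00404, and an adjusted p of 0.222 in limma. MRPL39, related to threonyl-tRNA synthetases, had -1.32, -0.44 and -0.62 on arrays 1, 2 and 4, with a mean of -0.79 ± 0.47 (SD, n = 3). That mean was -0.53 without array 1. A further probe of MRPL39, measured on all 4 arrays, read -0.58.

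The zinc-binding protein MRPL32, whose maturation by the m-AAA protease is needed for ribosome assembly, had log2 ratios of -1.03, -0.54, -0.27 and -0.95 and a mean of -0.70 ± 0.36. MRPL50, a mitochondrion-specific protein, had -1.09, -0.31, -0.39 and -1.02 (mean -0.70 ± 0.41). In both genes arrays 1 and 4 were lower than arrays 2 and 3. MRPL47, the counterpart of a bacterial protein near the tunnel exit, had -0.50, -0.38, -0.71 and -0.99 (mean -0.65 ± 0.27), lowest on array 4. MRPL55 had -1.34, -0.48, -0.72 and -0.25 (mean -0.70 ± 0.47), lowest on array 1. The adjusted p of these 4 genes in limma lay between 0.258 and 0.275, and none passed. The 3 further probes of MRPL55 had means of -0.54, -0.26 and -0.19.

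Further members below an unadjusted p of 0.05 included MRPL51 at -0.76 ± 0.62 and MRPL11 at -0.72 ± 0.59. MRPL11 is a homologue of the bacterial protein at the base of the stalk that recruits translation factors. MRPL14 had the closest array values among them, -0.72, -0.59, -0.31 and -0.69, although its other probe read 0.05. MRPL45, which anchors the ribosome to the inner membrane, had 0.07, -0.45, -0.76 and -1.29, with a mean of -0.61 ± 0.57. That mean was -0.38 without array 4. MRPL13, MRPL17, MRPL18 and MRPL52, with means from -0.61 to -0.51, completed the 15 lower genes. MRPL18 was at -0.35 without array 1 and MRPL52 at -0.33 without array 4. MRPL13 was above the control spots on 2 arrays for high BHB and 4 for low BHB, so it was measured only through the group where it is brighter. Without it 14 of 45 large subunit genes were lower.

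The stalk of the large subunit recruits translation factors. MRPL12, the stalk protein that has also been found to bind mitochondrial RNA polymerase, had log2 ratios of 0.0015, 0.34, -0.56 and -0.24, with a mean of -0.11 ± 0.38. MRPL10, which carries the stalk, had -0.25, 0.31, 0.35 and -0.17, with a mean of 0.06 ± 0.32. The arrays fell on both sides of 0 for these genes, and the 95% intervals of the means ran from -0.61 to 0.38 for MRPL12 and from -0.42 to 0.53 for MRPL10. MRPL53, a mitochondrion-specific protein, had a mean of -0.26 ± 0.36, which was -0.09 without array 1, and its other probe read 0.29. MRPL3, a core protein near the catalytic centre, had -1.42, 0.45, -0.83 and -0.28, and its mean of -0.52 ± 0.79 became -0.22 without array 1 and -0.84 without array 2.

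The highest means in the large subunit were those of MRPL28, MRPL54 and MRPL20. MRPL28 had log2 ratios of 0.37, 0.36, -0.08 and 1.45, with array 4 far the highest and a mean of 0.53 ± 0.65 that became 0.22 without that array. Its 2 further probes read -0.02 and -0.03. MRPL54 had -0.32, 0.44, 0.77 and 0.67 (mean 0.39 ± 0.49, or 0.63 without array 1), and its other probe read -0.31. MRPL20 had 0.86, 0.15, -0.42 and 0.12 (mean 0.18 ± 0.53), and the mean was -0.05 without array 1. None of these 3 genes was below an unadjusted p of 0.05 in limma. MRPL27, a protein at the peptidyl transferase centre, was named after its values were seen for its narrow spread. It had 0.05, 0.20, 0.13 and 0.18, a mean of 0.14 ± 0.07.

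**Figure D2:**
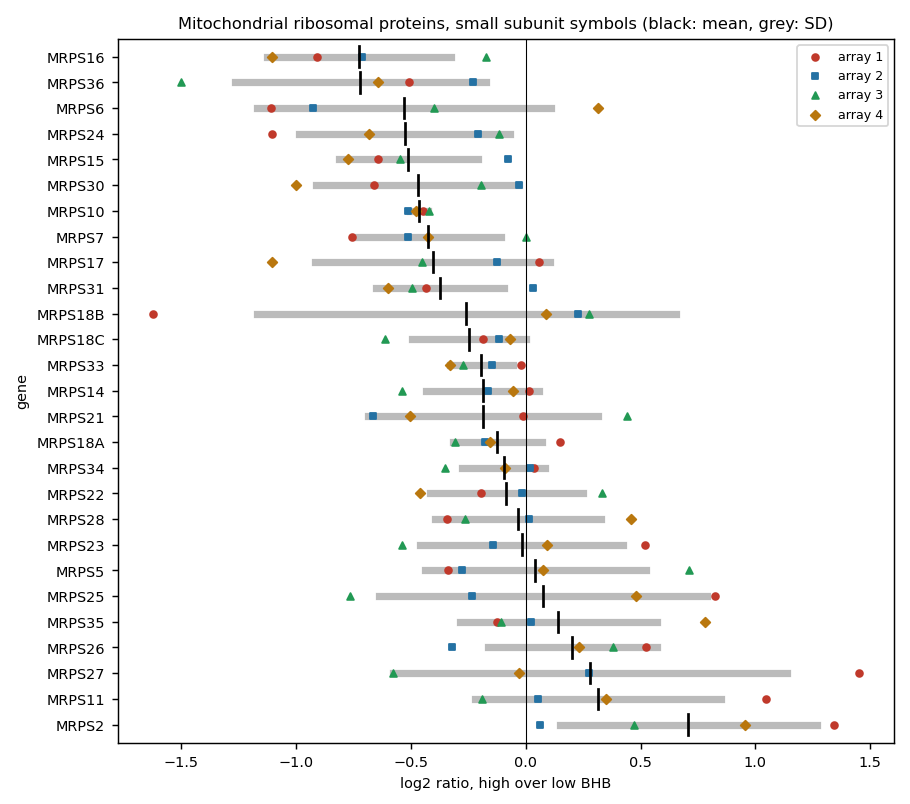
Log2 ratios of high over low BHB (horizontal axis) for the 27 measured small subunit genes (vertical axis), drawn as for the large subunit with points for arrays 1 to 4, black ticks for means and grey bars for the mean ± SD. MRPS10 has 4 nearly equal values, and MRPS2 lies above 0 on every array.

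In the small subunit MRPS16 had the lowest mean. It is a homologue of the bacterial small subunit protein, and its loss in humans causes a mitochondrial disease. Normalised log2 intensities were 9.09, 8.99, 9.81 and 9.49 in the high BHB channel and 9.99, 9.70, 9.98 and 10.60 in the low BHB channel. The log2 ratios were -0.91, -0.71, -0.17 and -1.11, below 0 on each array and closest to 0 on array 3. The mean was -0.72 ± 0.40 (SD, n = 4), or 0.605-fold, with an adjusted p of 0.257 in limma.

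MRPS10, a homologue of bacterial S10, had the narrowest spread of all members, with log2 ratios of -0.45, -0.51, -0.42 and -0.48 and a mean of -0.46 ± 0.04. MRPS15 had -0.64, -0.08, -0.55 and -0.77 (mean -0.51 ± 0.30). MRPS24, the counterpart of bacterial S3 at the entry of the messenger RNA channel, had -1.10, -0.21, -0.12 and -0.68 (mean -0.53 ± 0.46), and -0.33 without array 1. These 3 genes were below an unadjusted p of 0.05, at adjusted p between 0.318 and 0.33 in limma. MRPS6 had -1.11, -0.93, -0.40 and 0.32 (mean -0.53 ± 0.64), with array 4 on the other side of 0. Its mean was -0.81 without array 4 and -0.34 without array 1. MRPS7, an early-binding protein of the head of the subunit, had -0.76, -0.51, -0.00054 and -0.43, a mean of -0.42 ± 0.32.

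MRPS36 had log2 ratios of -0.51, -0.23, -1.50 and -0.64, lowest on array 3, and a mean of -0.72 ± 0.55 that became -0.46 without that array. Despite its symbol, its product is now assigned to the 2-oxoglutarate dehydrogenase complex of the tricarboxylic acid cycle. MRPS30 (-0.47 ± 0.44) and MRPS18A (-0.12 ± 0.19) lie in the large subunit in structures of the mammalian ribosome. MRPS30 was at -0.29 without array 4, and MRPS18A at -0.21 without array 1 and -0.06 without array 3. With these 3 genes left out the small subunit median was still -0.19 over 24 genes, and with MRPS30 and MRPS18A counted as large subunit proteins that median stayed at -0.34 over 48 genes.

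MRPS2, homologue of bacterial S2, was the only member above 0 on every array at an unadjusted p under 0.05. Its normalised log2 intensities were 10.90, 9.82, 10.59 and 11.21 in the high BHB channel and 9.56, 9.76, 10.12 and 10.26 in the low BHB channel. Log2 ratios were 1.34, 0.06, 0.47 and 0.95, near 0 on array 2 and highest on array 1. The mean was 0.71 ± 0.56 (1.63-fold), with an adjusted p of 0.285 in limma. MRPS11 had 1.05, 0.05, -0.19 and 0.35 (mean 0.31 ± 0.54, or 0.07 without array 1), and its 3 further probes read -0.39, -0.34 and 0.17, so its direction differed between probes. The pentatricopeptide repeat protein MRPS27 had 1.45, 0.28, -0.58 and -0.03 (mean 0.28 ± 0.86), and -0.11 without array 1.

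MRPS22 and MRPS34, mitochondrion-specific proteins whose loss in humans causes mitochondrial disease, had means near 0. MRPS22 had log2 ratios of -0.19, -0.02, 0.33 and -0.46 (mean -0.08 ± 0.33), while its other probe read -0.53. MRPS34 had 0.04, 0.02, -0.35 and -0.09 (mean -0.10 ± 0.18). The 95% intervals of these means ran from -0.56 to 0.39 and from -0.54 to 0.35.

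Members were also described by whether the protein has a bacterial homologue. MRPL55, MRPS18A, MRPS30 and MRPS36 were placed in neither class. Of these, MRPL55 and MRPS36 were among the lower members at an unadjusted p under 0.05 in limma. In the large subunit the median was -0.29 over 29 genes with bacterial homologues (25 below 0) and -0.37 over 16 mitochondrion-specific genes (14 below 0). In the small subunit it was -0.32 over 14 genes with bacterial homologues (11 below 0) and -0.05 over 10 mitochondrion-specific genes (6 below 0). At an unadjusted p under 0.05, 8 of 29 and 6 of 16 large subunit genes and 4 of 14 and 0 of 10 small subunit genes were lower, in the same order of classes, against 11.6% of all genes. On array 3 the order of the classes turned in both subunits, with medians of -0.34 for bacterial homologues and -0.14 for mitochondrion-specific genes in the large subunit and -0.23 and -0.31 in the small subunit. These differences between classes were not tested.

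Where a gene had more than 1 measured probe, the probes often differed. In 24 genes there were 30 further probes, and 21 of the 30 had the sign of the brightest probe. By subunit this held for 11 of 17 probes in the large and 10 of 13 in the small subunit. The sign differed for MRPL14, MRPL28, MRPL38, MRPL53 and MRPL54 and for MRPS11 and MRPS25. Some further probes of the same sign were lower than the brightest probe. Examples were MRPL15 at -0.67 beside -0.08, MRPS23 at -0.54 beside -0.02, MRPS31 at -0.84 beside -0.37 and MRPS22 at -0.53 beside -0.08. Others of the same sign lay closer to 0, such as MRPL22 at -0.24 beside -1.01. Whether such probes match different transcripts was not tested.

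**Figure D3:**
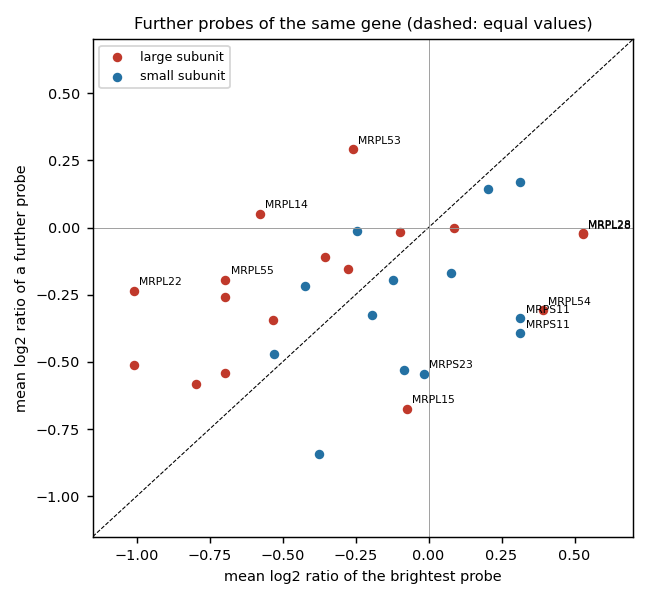
Mean log2 ratio of each further measured probe (vertical axis) against that of the brightest probe of the same gene (horizontal axis), for 30 probes of 24 genes coloured by subunit, with gene names where the pair differs by over 0.5. The dashed line marks equal values; 21 of the 30 probes have the sign of the brightest one.

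Cytosolic ribosomal proteins and complex I subunits, taken by symbol, also had medians below 0 on every array. Cytosolic ribosomal proteins had a median of -0.45 over 67 genes, with array medians of -0.94, -0.31, -0.22 and -0.70. Complex I subunits, some of which the mitochondrial ribosome itself supplies, had -0.40 over 36 nuclear genes, with array medians of -0.57, -0.34, -0.13 and -0.51. Large subunit members lay closer to 0 than cytosolic ribosomal proteins on arrays 1, 2 and 4 and further from 0 on array 3. At an unadjusted p under 0.05, 44.8% of the cytosolic and 41.7% of the complex I genes were lower, against 11.6% of all genes, and 5.56% of the complex I genes were higher, against 5.72%. Without array 1 the medians were -0.24 for the large subunit, -0.24 for the small subunit, -0.36 for cytosolic ribosomal proteins and -0.23 for complex I. The large subunit median minus that of the small subunit was -0.40, -0.05, -0.0022 and -0.19 on arrays 1 to 4, and over the means without array 1 both medians were -0.24. Differences between these families were not tested.

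**Figure D4:**
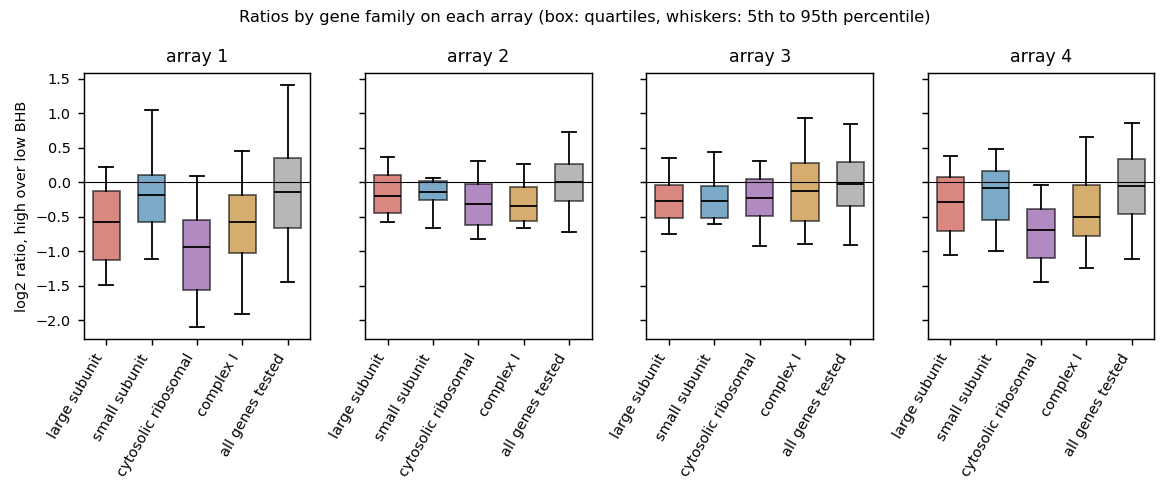
Log2 ratios of high over low BHB (vertical axis) on arrays 1 to 4, for large and small subunit genes of the mitochondrial ribosome, cytosolic ribosomal proteins, complex I subunits and all measured genes. Boxes span the quartiles with the median as a line, and whiskers the 5th to 95th percentile; array 1 shows the widest ratios in all 5 sets.

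Ribosomal proteins of the mitochondrion that carry other symbols had a median of -0.36, with 5 of 6 below 0. CHCHD1, DAP3 and GADD45GIP1 passed the filter only through the low BHB channel, and without these 3 the median was -0.05, with 2 of 3 below 0. PTCD3, a small subunit protein that binds RNA, had log2 ratios of -0.87, -0.25, -0.51 and -0.82 (mean -0.61 ± 0.29). DAP3, a GTP-binding protein of the small subunit, had -0.89, -0.20, -0.22 and -0.66 (mean -0.49 ± 0.34), and was above the control spots on 2 arrays for high BHB and 4 for low BHB. Both were below 0 on every array. At an unadjusted p under 0.05 these 2 of 6 were lower, against 11.6% of all genes, and neither passed after adjustment (0.282 and 0.328 in limma). The list also held MRPL58, a peptidyl-tRNA hydrolase that the platform lists under an older symbol, at 0.06 ± 0.40. MRPL57, likewise listed under an older symbol, was not counted among the members, their classes or this list. It had -0.88, -0.68, -0.08 and -0.23 (mean -0.47 ± 0.37).

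Translation factors and their helpers had a median of -0.21, with 10 of 13 measured genes below 0. Their array medians were -0.50, -0.32, -0.15 and 0.0002, and on array 4 only 6 of 13 genes were below 0. The means of GFM2 (-0.36), TSFM (-0.38) and MTRF1 (-0.05) became 0.02, 0.05 and 0.09 without array 1. LRPPRC, which stabilises mitochondrial messenger RNAs, had log2 ratios of -1.42, -0.34, -0.91 and -0.48 (mean -0.79 ± 0.49). The elongation factor GFM1 had -0.94, -0.63, -0.43 and -0.14 (mean -0.54 ± 0.34), and MTFMT, which formylates the initiator tRNA, had -0.64 ± 0.71, or -0.39 without array 1. These 3 of 13 were lower at an unadjusted p under 0.05, against 11.6% of all genes, with adjusted p from 0.248 to 0.327 in limma. The elongation factor TUFM stood at 0.04 ± 0.93, with array 3 at 1.32.

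Assembly factors of the mitochondrial ribosome had a median of 0.01, with 8 of 17 measured genes below 0, and the difference from the ribosomal proteins was not tested. METTL15, NSUN4 and TRMT61B passed the filter only through the low BHB channel and DHX30 only through the high BHB channel. Without these genes the median was 0.01, with 6 of 13 below 0. TFB1M, which methylates the small subunit RNA, was lower at -0.30, -1.24, -0.43 and -0.93 (mean -0.72 ± 0.44). The GTPase ERAL1, which acts on the small subunit, had 2.14, -0.08, 0.19 and 1.65 (mean 0.98 ± 1.09), near 0 on arrays 2 and 3, and 0.59 without array 1. The GTPase MTG2, which acts on the large subunit, had 0.47, 0.15, 0.94 and 1.16 (mean 0.68 ± 0.46). At an unadjusted p under 0.05 in limma 1 of 17 was lower, against 11.6% of all genes, and 2 were higher, against 5.72%. These were TFB1M, ERAL1 and MTG2, and none passed after adjustment. Genes of mitochondrial transcription and DNA maintenance had 4 of 7 below 0, with POLRMT, the mitochondrial RNA polymerase, at 0.56 ± 0.29 and TFAM, which packages mitochondrial DNA, at -0.38 ± 0.52, or -0.15 without array 3. POLG2 passed the filter only through the high BHB channel, and without it 4 of 6 were below 0.

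Markers of the cell types of the embryo were read on the same arrays, and none passed adjustment in limma. Trophectoderm markers had 4 of 9 genes below 0 and array medians of 0.12, 0.30, 0.20 and 0.17. ELF5 passed the filter only through the high BHB channel, and without it 4 of 8 were below 0. Inner cell mass markers had 5 of 6 below 0, with array medians of -0.38, 0.02, -0.15 and -0.47, so that they were lowest on arrays 1 and 4. DPPA4 passed the filter only through the low BHB channel and LIN28B only through the high BHB channel. Without these genes 4 of 4 were below 0. Of these, the mean of SALL4 was -0.05, or 0.002 without array 2, and that of POU5F1 was -0.27, or -0.03 without array 1. SOX2 was at -0.41, and at -0.52 to -0.30 with 1 array left out. NANOG was at -3.38 on array 4, and its mean of -0.87 was -0.04 without that array. Hypoblast markers had 0 of 5 below 0, with array medians of 0.39, 1.04, 1.17 and -0.03, and 2 of the 5 were above 0 on all 4 arrays. FN1 had -0.99, 1.75, 1.18 and -0.22, and its mean of 0.43 was -0.01 without array 2. The mean of HNF4A was 1.06, or 0.53 without array 3. Among markers of other cells PTPRC had 0.59, -0.07, 0.34 and 0.84 and HBA -0.12, 0.68, -0.06 and 0.49. The part of the cell makeup of the embryos in the ratios of mitochondrial ribosomal proteins was not tested.

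**Figure D5:**
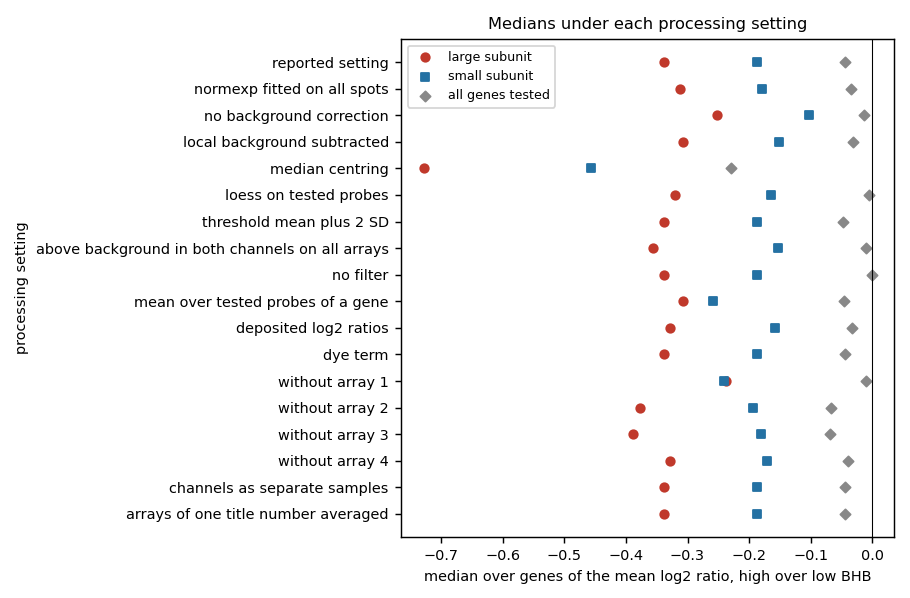
Median over genes of the mean log2 ratio (horizontal axis) for large subunit genes, small subunit genes and all measured genes under each processing setting (vertical axis). Medians of both subunits stay below 0 in all 18 settings shown, furthest from 0 after median centring, where the median of all genes moves too. The dye term, the channels as separate samples and the averaging by title number could not move the subunit medians.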

How the data were processed

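Gene expression was measured on 4 two-colour arrays of embryos from high and low BHB cows. The authors deposited median spot and local background intensity per channel without normalization, per the file headers. They also deposited log2 ratios per array and limma is the only tool in the submitters' processing notes. Set against the turned ratios computed here, these had r of 0.967 to 0.992 and slopes of 0.799 to 0.998, so their scale is log2 and their direction high over low BHB. Their column medians were 0.014, 0.00096, 0.0047 and 0.017, and their centring and background step are not given in the sources used here. A further deposited table has 4 columns named by array number alone, which were not used. Here the intensities were corrected with normexp (offset 50) without the 91 to 113 probe spots per array that the scanner software had set aside. Each array was then normalized with loess (span 0.3, control spots at weight 0) and turned to high over low BHB. The threshold of a measured probe was the median plus 2 MAD of the negative control spots. Of 43794 probes 16575 were tested with lmFit and eBayes in limma 3.58.1 (R 4.3.3), with Benjamini-Hochberg adjustment over all of them.

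Symbols came from the platform's annotation (21790 probes with 1 symbol, none with several, 22004 without), updated for genes other than the members through the RefSeq table of ARS-UCD2.0 (20025 current, 1524 synonyms, 241 neither). Array values are given for the 6 smallest p, the 3 lowest and the 3 highest means in each subunit and for members with a textbook role. Outside this rule they are also given for MRPL14 and MRPL27, for their close values. Members, lists and settings were chosen with earlier results of these data known. The test was checked on simulated data. Tested as a term in limma, the dye gave 0 probes past adjustment and 610 with an unadjusted p below 0.05. Alternatives covered background, normalization, filter, probe choice, the deposited ratios, dye, pairing and each array.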

Additional observations from a re-analysis of the deposited data

Results flagged for a closer look

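In 4 of 71 members with 4 values 1 array stood apart from the other 3 by Dixon's test, or 5.63%, where chance flags about 1 in 20. MRPL34 was at -1.52 on array 1, with a mean of -0.15 over the others. MRPL2, a core protein of the peptidyl transferase region, was at -1.13 on array 1, with 0.17 over the others. MRPS18B was at -1.62 on array 1, with 0.20 over the others. Its normalised log2 intensity for high BHB was 6.94 on array 1 and 8.66 to 9.39 on the others. MRPS35 was at 0.779 on array 4, with -0.07 over the others. Its intensity for low BHB was 6.92 on array 4 and 7.82 to 8.40 on the others. MRPL2 and MRPS18B were above the control spots on 3 arrays for high BHB and 4 for low BHB, and MRPS35 on 3 arrays for each group. MRPL2, MRPS18B and MRPS35 thus changed sign without that array, and the cause was not tested.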

How the results depend on the processing

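The medians of both subunits were below 0 under all 17 alternatives, but not all of these could move them. The dye term, the channels as separate samples and the averaging by title number leave the mean ratio of genes with 4 values unchanged. They repeated the medians of -0.34 and -0.19 and are no further support. A threshold at the mean plus 2 SD of the control spots and the absence of a filter also gave these medians. Median centring in place of loess moved the median of all genes from -0.04 to -0.23, the large subunit to -0.73 (-0.50 relative to all genes) and the small subunit to -0.46 (-0.23 relative to all genes). It put 45 of 46 and 25 of 27 members and 68.8% of all genes below 0, with 40 members lower and 0 higher at an unadjusted p under 0.05, against 22.7% and 0.482% of all genes. Without background correction the small subunit median was -0.10. Leaving out 1 array gave medians of -0.39 to -0.24 for the large and -0.24 to -0.17 for the small subunit. At an unadjusted p under 0.05 it gave 8 to 14 lower members, against 7.16% to 10.5% of all genes. It gave 0 to 2 higher members, against 2.60% to 6.63% of all genes. With no replicate block, the channels taken as separate samples, 6 members were lower, against 4.90% of all genes. In a further setting the pairs of arrays that share a number in their titles were averaged as a replicate block. There 11 members and 1531 of 16575 probes passed an adjusted p of 0.05. At an unadjusted p under 0.05 in limma it gave 25 lower members, against 16.2% of all genes, and 2 higher members, against 11.4%. That setting leaves 2 values a gene, and arrays 1 and 3, and 2 and 4, which it joins, had r of 0.13 and 0.20. In the other alternatives 0 members passed an adjusted p of 0.05 in limma. They had 6 to 40 members lower at an unadjusted p under 0.05, against 4.90% to 22.7% of all genes.

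Among the 26 members picked by the rule for array values, the sign turned in 16 cases, none past adjustment in limma. The cause was not tested. With 1 array left out, 14 of the 47 remaining members turned too. MRPL12 was at 0.10 with normexp fitted on all spots, 0.20 without background correction, 0.11 with local background subtracted and -0.27 to 0.036 with 1 array left out. MRPL28 was at -0.14 with normexp fitted on all spots. With median centring MRPL54 was at -0.013, MRPL20 at -0.19, MRPS11 at -0.014, MRPS27 at -0.17 and MRPL10 at -0.33. MRPS11 was at -0.062 as a mean over its probes. With 1 array left out MRPL20 ran from -0.051 (without array 1) to 0.38, MRPS27 from -0.11 (without array 1) to 0.57, MRPL10 from -0.040 (without array 3; -0.025 without array 2) to 0.16 and MRPS22 from -0.22 to 0.041 (without array 4). Of 26 named members 16 changed their mean by a factor over 1.5 or their sign when 1 array was dropped, and 11 did so without array 1.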
